A study of Mus musculus with 18 samples.

Results

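The bone morphogenetic protein (BMP) pathway and its Id target genes were followed through 10 genes: Id1, Id2, Id3 and Id4, the ligand genes Bmp2 and Bmp4, the receptor gene Bmpr1a, the inhibitory Smad genes Smad6 and Smad7, and Grem1, which encodes a secreted antagonist. The genes were taken by name, for their place in the pathway, and with earlier results of these data known. All 10 were found among the 55450 gene IDs of the count table. A filter on low counts left 17912 genes for testing, 9 of them from this group, and Bmp2 lay under the filter. RNA with a polyA tail was sequenced from C2C12 cells, a mouse myoblast line whose cells fuse into myotubes in low-serum medium. The series addresses the dosage of the noncoding RNAs of Dlk1-Dio3, an imprinted cluster that includes Meg3, in muscle cells. Each of 3 lines was taken as growing myoblasts and as myotubes at day 3 of differentiation, with libraries A, B and C in each of the 6 groups, 18 in all. Control cells were a sorted pool that had received the pX458 plasmid (Cas9 with EGFP) without a guide. The Dlk1-Dio3 overexpressor and the Dlk1-Dio3 knockout, named as in the labels, were each a single-cell clone edited with a pair of guides against the proximal regulatory region of Meg3. Genotype and clone cannot be told apart, because each genotype was 1 clone set against an uncloned pool. Nothing in the labels ties the libraries of a group to separate derivations, so the p-values measure only the spread between these samples, which may be technical.

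BMP ligands are secreted dimers that bring type I receptors such as Bmpr1a together with type II receptors. The type I receptor then phosphorylates Smad1, Smad5 and Smad9, which enter the nucleus with Smad4, and Id1, Id2 and Id3 are among the genes they switch on most directly. Smad6 and Smad7 block the receptor and the Smads as feedback inhibitors, and Grem1 binds the ligands outside the cell. Id proteins are helix-loop-helix proteins without a DNA-binding region. They bind the E proteins encoded by Tcf3, Tcf4 and Tcf12 and so keep them from pairing with MyoD and related muscle factors. In muscle cells Id levels are known to be high in dividing myoblasts and low after fusion.

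Library totals ran from 41544358 to 79140702 counts, and 3 counts, the most that a count of 0 allows, stood for 0.0375 to 0.0693 CPM (a count relative to the library's total, scaled with its TMM factor). These limits cover counting error only. Meg3 had 5222 to 7763 counts in each overexpressor library and 0 in every control and knockout library, so it did not separate those 2 lines, and directions for the knockout rest on its label. All 5 myoblast markers (Myf5, Myod1, Des, Cdh15 and Pax7) had a mean of at least 1 CPM in every group. The summed level of 6 markers of differentiating muscle (Myog, Mymk, Myh3, Ckm, Tnnt3 and Acta1) was 243 to 372 CPM in control myoblasts, 423 to 699 in overexpressor myoblasts and 9130 to 11659 in knockout myoblasts. In myotubes it was 13607 to 14059 in control, 20785 to 22899 in the overexpressor and 29463 to 35123 in the knockout. The sum of 3 cell cycle markers was 748 to 1058 CPM in myoblasts. In myotubes it was 67.3 to 94.9 CPM for control, 122 to 181 for overexpressor and 110 to 166 for knockout cells, so both mutant lines lay above control in the sum. Of the 3 markers, Mki67 was not above control in knockout myotubes (mean 16.6 against 17.1 CPM). The part of these differences in the results below was not tested, and in bulk RNA fewer cells of a type cannot be told apart from less RNA per cell. Of 6 osteoblast markers, 2 (Runx2 and Dmp1) reached 1 CPM in each group, and Ibsp had no more than 3 counts in any library. Mean Dmp1 was 2.94 CPM (control), 1.11 (overexpressor) and 9.58 (knockout) in myoblasts, and 1.00, 3.11 and 7.31 in myotubes. Of 4 adipocyte markers, 1 (Pparg) reached 1 CPM in each group. Its means were 11.4 CPM (control), 19.3 (overexpressor) and 6.12 (knockout) in myoblasts, and 10.1, 7.66 and 3.82 in myotubes. Markers of endothelial cells summed to at most 0.502 CPM and those of macrophages to at most 2.21 CPM.

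Promoter windows of 300 bases, from 250 before to 50 after the annotated start, were taken from RefSeq (GRCm38.p6) and matched 7 of the 10 genes, all but Id1, Bmp2 and Smad7. They were searched on both strands for GGCGCC, the core of the BMP-responsive element, for CAGAC, the Smad-binding element, and for the E-box CANNTG, the site of MyoD and E protein dimers. Over all 32851 windows of this length, 11.9% held the BMP core, 49.6% the Smad element and 72.3% an E-box. The first and the last read the same on both strands. The 4 windows below are shown because the results below turn on Id2, Id3, Bmp4 and Grem1, with the matched letters in capitals. The Id2 window (chr12:25096043-25096342, minus strand) and the Id3 window (chr4:136143572-136143871, plus strand) lie inside the GENCODE gene bodies, which begin further upstream. The other windows are chr14:46390620-46390919 (Bmp4) and chr2:113758599-113758898 (Grem1), both on the minus strand.
Id2: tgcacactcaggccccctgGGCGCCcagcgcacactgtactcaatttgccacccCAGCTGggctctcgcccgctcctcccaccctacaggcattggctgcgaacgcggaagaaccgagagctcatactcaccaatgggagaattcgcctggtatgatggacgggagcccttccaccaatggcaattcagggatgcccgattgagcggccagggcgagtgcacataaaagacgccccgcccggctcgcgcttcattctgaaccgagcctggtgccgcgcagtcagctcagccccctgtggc
Id3: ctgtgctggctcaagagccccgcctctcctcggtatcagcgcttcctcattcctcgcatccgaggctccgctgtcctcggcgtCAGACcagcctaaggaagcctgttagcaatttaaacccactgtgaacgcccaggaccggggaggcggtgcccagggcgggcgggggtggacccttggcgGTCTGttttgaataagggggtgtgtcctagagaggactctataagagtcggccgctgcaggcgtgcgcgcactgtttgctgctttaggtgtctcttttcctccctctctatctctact
Bmp4: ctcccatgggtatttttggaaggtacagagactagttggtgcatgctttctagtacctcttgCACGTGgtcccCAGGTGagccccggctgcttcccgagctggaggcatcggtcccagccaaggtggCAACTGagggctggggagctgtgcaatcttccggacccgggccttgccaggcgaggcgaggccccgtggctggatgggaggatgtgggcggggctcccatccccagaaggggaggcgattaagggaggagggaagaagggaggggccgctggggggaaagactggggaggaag
Grem1: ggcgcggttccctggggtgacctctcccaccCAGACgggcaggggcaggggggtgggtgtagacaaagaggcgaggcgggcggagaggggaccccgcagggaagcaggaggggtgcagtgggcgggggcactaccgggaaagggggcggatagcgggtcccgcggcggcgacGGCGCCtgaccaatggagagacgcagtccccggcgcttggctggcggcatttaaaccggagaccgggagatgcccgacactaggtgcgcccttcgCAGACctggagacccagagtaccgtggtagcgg
Counted from the start, Id2 held the BMP core at -231 and an E-box at -196, and Id3 held the Smad element at -167 and -68. Bmp4 held E-boxes at -188, -177 and -123, with neither of the other motifs. Grem1 held the BMP core at -78 and the Smad element at -219 and 18 bases after the start. Of the windows not shown, Id4 held the BMP core at -148, Bmpr1a held it at -198, and Smad6 held an E-box 8 bases after the start. A match describes the letters of the window and is not a measured site.

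Id3 was, per length, the most abundant Id transcript in myoblasts of each line, and it fell by the largest factor of the 4 on differentiation, and the mutant lines differed from control in opposite directions once the cells were myotubes. Id3 (chromosome 4, 136143497 to 136145755) stood at 293, 320 and 302 CPM in control myoblasts, 341, 283 and 325 in the overexpressor and 290, 243 and 257 in the knockout. In myotubes it was 11.7, 12.7 and 10.6 CPM in control, 5.12, 7.32 and 4.18 in the overexpressor and 47.5, 46.9 and 42.4 in the knockout. The 3 myotube groups did not overlap, with the knockout highest and the overexpressor lowest, while overexpressor and control myoblasts overlapped. Control cells lost 26.1-fold of Id3 on differentiation (log2 fold change -4.71, SE 0.16, adjusted p = 1.14e-13), the overexpressor 57.0-fold (-5.83, SE 0.17) and the knockout 5.77-fold (-2.53, SE 0.14). Against control myotubes, Id3 was 3.90-fold higher in the knockout (log2 fold change 1.97, SE 0.14, adjusted p = 3.52e-09) and 2.10-fold lower in the overexpressor (-1.07, SE 0.15, adjusted p = 9.75e-06). In log2 terms the fall was smaller in the knockout than in control by 2.18 (SE 0.19, adjusted p = 1.23e-07) and larger in the overexpressor by 1.12 (log2 difference -1.12, SE 0.20, adjusted p = 0.000232). In myoblasts Id3 did not pass in the overexpressor (0.05, SE 0.13, adjusted p = 0.794) or in the knockout (-0.21, SE 0.13, adjusted p = 0.195), and the knockout passed when only its own and the control libraries were fitted (-0.22, adjusted p = 0.0150).

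Id1 and Id2 were more abundant in overexpressor than in control myoblasts. Id1 (chromosome 2, 152736251 to 152737410) was at 56.6, 59.1 and 62.0 CPM in control myoblasts, 118, 105 and 124 in the overexpressor and 80.3, 69.0 and 72.2 in the knockout. In myotubes it was at 22.7, 24.5 and 23.5 CPM in control, 17.6, 18 and 17.4 in the overexpressor and 30.4, 30.3 and 29.1 in the knockout. No 2 of the 6 groups overlapped, and the overexpressor held both the highest group, as myoblasts, and the lowest, as myotubes. In myoblasts the overexpressor was 1.95-fold higher than control (log2 fold change 0.96, SE 0.07, adjusted p = 3.15e-09) and 1.34-fold lower in myotubes (-0.42, SE 0.07, adjusted p = 7.15e-05). The knockout was higher in both stages, by 0.32 in myoblasts (SE 0.07, adjusted p = 0.000932) and 0.35 in myotubes (SE 0.07, adjusted p = 0.00037). Id1 fell 2.51-fold on differentiation in control, 6.55-fold in the overexpressor and 2.47-fold in the knockout. The difference in response was -1.38 for the overexpressor (SE 0.10, adjusted p = 4.62e-09) and 0.03 for the knockout (SE 0.10, adjusted p = 0.843).

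Id2 (chromosome 12, 25093799 to 25097140) was at 45.6, 41.0 and 43.9 CPM in control myoblasts, 97.4, 108 and 95.7 in the overexpressor and 46.6, 41.8 and 41.3 in the knockout. In myotubes the values were 18.9, 22.0 and 20.8 CPM in control, 31.1, 36.1 and 33.1 in the overexpressor and 14.1, 14.3 and 12.2 in the knockout. Overexpressor libraries were above all others of their stage, and control and knockout overlapped in myoblasts but not in myotubes. Id2 rose against control in the overexpressor by 1.20 in myoblasts (SE 0.08, adjusted p = 1.64e-09) and by 0.70 in myotubes (SE 0.08, adjusted p = 1.09e-06). In knockout cells it did not pass in myoblasts (-0.01, SE 0.08, adjusted p = 0.941) and fell by 0.60 in myotubes (SE 0.09, adjusted p = 7.04e-06). Differentiation lowered it 2.12-fold in control, 2.99-fold in the overexpressor and 3.20-fold in the knockout. The response was more negative than in control by 0.50 in the overexpressor (log2 difference -0.50, SE 0.12, adjusted p = 0.00246) and by 0.59 in the knockout (-0.59, SE 0.12, adjusted p = 0.000531). The first of these was lost with library totals in place of TMM (-0.31, adjusted p = 0.0682). Id2 separated the 2 mutant lines in the same direction in both stages, by 1.21 in myoblasts (SE 0.08, adjusted p = 8.50e-10) and 1.31 in myotubes (SE 0.09, adjusted p = 1.02e-09), overexpressor above knockout.

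Id4 (chromosome 13, 48261228 to 48266026) was near the limit of detection. It had 24 to 27 counts per library in control myoblasts, 13 to 21 in the overexpressor and 20 to 35 in the knockout, and 12 to 28, 8 to 12 and 6 to 17 in the myotubes of the same lines. Neighbouring groups in the order of mean level all overlapped. Id4 passed in overexpressor against control myotubes (log2 fold change -1.42, SE 0.41, adjusted p = 0.00657), a call lost without control myotube replicate C (-1.01, adjusted p = 0.0693), and it fell on differentiation in the overexpressor (-1.40, SE 0.42, adjusted p = 0.00679) and in the knockout (-1.55, SE 0.39, adjusted p = 0.00196). In knockout against control myotubes it did not pass (-0.89, SE 0.41, adjusted p = 0.06), but it did without control replicate A (-1.09, adjusted p = 0.0372) or knockout replicate B (-1.38, adjusted p = 0.0155).

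**Figure D1:**
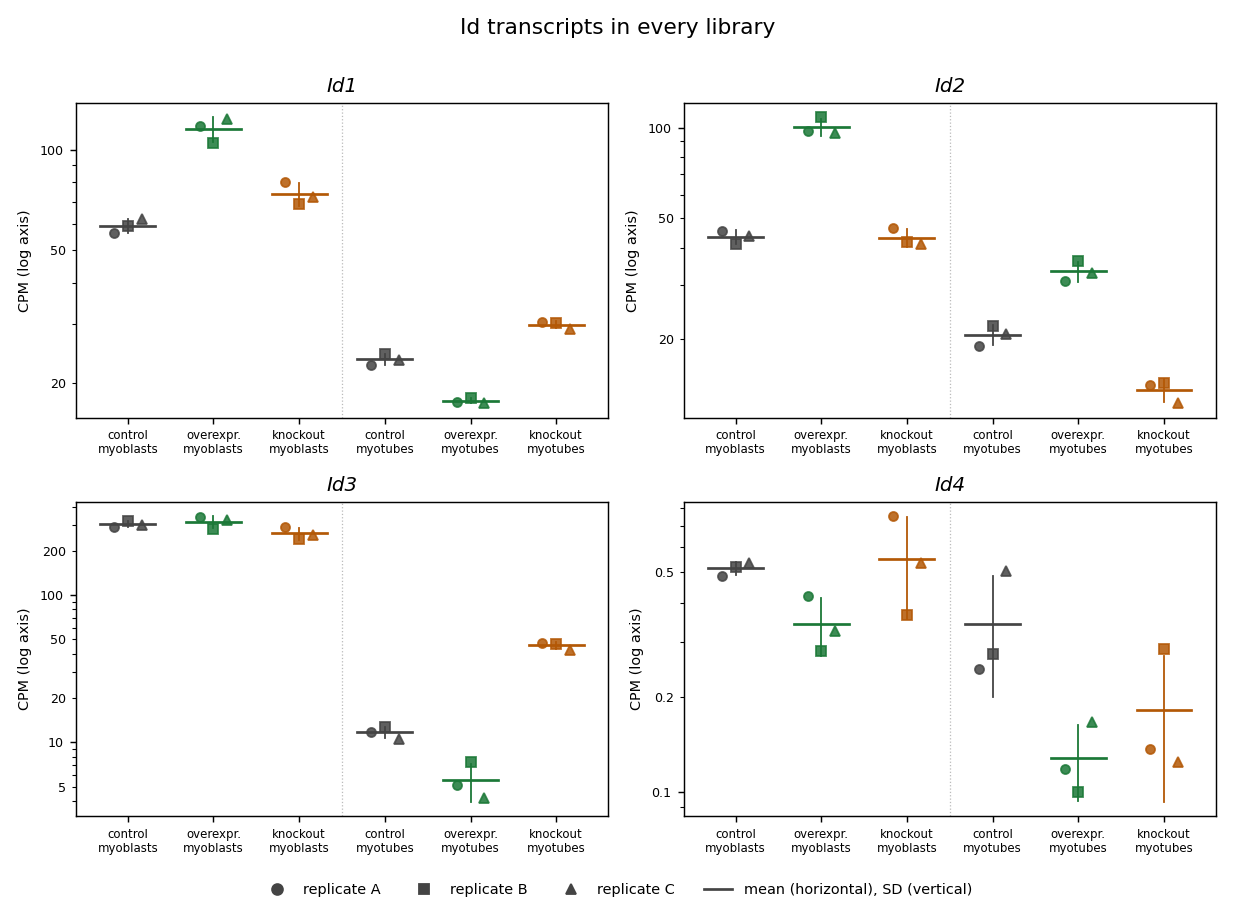
Level of each Id transcript in every library, in CPM on log axes, by group. Symbols mark replicates A, B and C, horizontal lines the mean and vertical lines the SD of 3 libraries. Id3 runs from 341 CPM in overexpressor myoblasts to 4.18 CPM in overexpressor myotubes, with knockout myotubes at 42.4 to 47.5 CPM.

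Set against each other per length, the Id transcripts changed their composition as well as their sum. On the scale of CPM per kilobase of exon, the 4 genes summed to 239 ± 7.79 in control myoblasts, 318 ± 21.8 in those of the overexpressor and 229 ± 19.8 in those of the knockout (SD, n = 3). The sums in myotubes were 35.4 ± 1.76, 32.1 ± 2.08 and 56.9 ± 2.60 in the same order (SD, n = 3). Control and overexpressor myotubes overlapped in this sum, and knockout myotubes lay above both. Id3 made up 71.1% ± 1.19 of the sum in control myoblasts, 55.6% ± 1.62 in those of the overexpressor and 64.3% ± 0.383 in those of the knockout (SD, n = 3). In myotubes its share was 18.5% ± 1.24 for control, 9.56% ± 2.17 for overexpressor and 44.8% ± 0.687 for knockout cells (SD, n = 3). Id1 was the largest share of control myotubes, at 57.5% ± 0.789, and Id2 rose to 42.8% ± 1.24 of the sum in overexpressor myotubes against 9.74% ± 0.398 in knockout myotubes (SD, n = 3). The shares depend on the length used: by coding length, Id2 held 58.6% and Id1 28.6% of the sum in overexpressor myotubes, and Id3 held 59.0% in knockout myotubes.

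**Figure D2:**
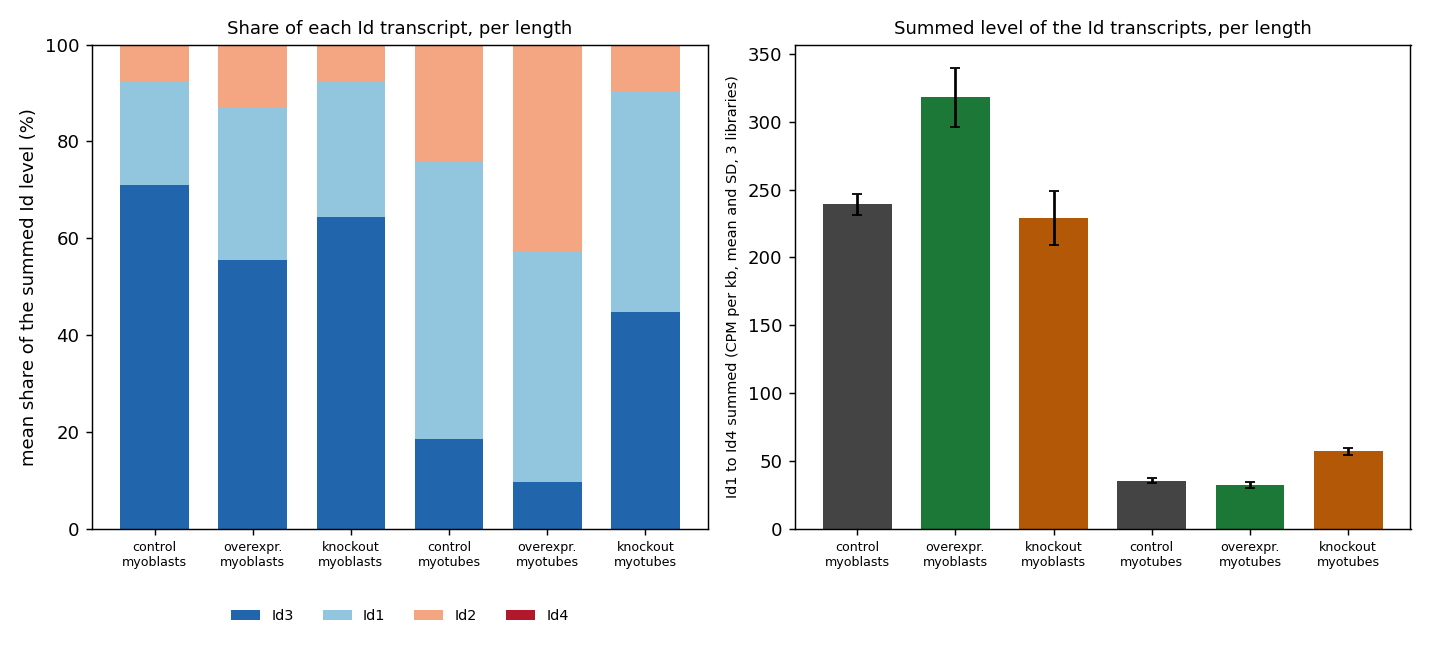
Left, mean share (%) of each Id transcript in the summed level per length, by group. Right, the summed level of Id1 to Id4 in CPM per kilobase of exon, with bars for the mean and error bars for the SD of 3 libraries. Id4, at most 0.252% on average, is too small to be seen. The Id3 share falls from 71.1% to 18.5% in control cells and from 64.3% to 44.8% in knockout cells.

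Among the ligands, Bmp4 was nearly absent from the overexpressor clone. Bmp4 (chromosome 14, 46383520 to 46390669) had 49.7, 46.2 and 46.6 CPM in control myoblasts, 34.5, 31.4 and 34.8 in the knockout, and 0.0399, 0.0863 and 0.116 in the overexpressor, where these values stand for 2, 4 and 5 counts. In myotubes it had 55.5, 52.3 and 55.4 CPM in control, 21.1, 17.5 and 14 in the knockout, and 0.683, 0.0876 and 1.06 in the overexpressor, from 46, 7 and 76 counts. Control, knockout and overexpressor did not overlap in either stage, always in that order. In myoblasts the overexpressor was 586-fold lower than control (log2 fold change -9.19, SE 0.54, adjusted p = 2.75e-09) and 90.8-fold lower in myotubes (-6.51, SE 0.40, adjusted p = 2.41e-09). Leaving out 1 library moved the myotube value between -7.11, without overexpressor replicate C, and -5.95, without replicate B. The knockout was 3.10-fold lower than control in myotubes (-1.63, SE 0.30, adjusted p = 0.00022). In knockout myoblasts Bmp4 did not pass (-0.50, SE 0.29, adjusted p = 0.166), although the groups did not overlap, and it passed when only those 2 groups were fitted (-0.51, adjusted p = 2.75e-08).

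Differentiation left Bmp4 without a called change in control (log2 fold change 0.19, SE 0.29, adjusted p = 0.579). It fell by 0.93 in the knockout (SE 0.30, adjusted p = 0.0127), a call lost with the Wald test of DESeq2 (-0.81, adjusted p = 0.123) and without knockout myotube replicate C (-0.80, adjusted p = 0.0587). In the overexpressor it rose by 2.88 from a few counts (SE 0.78, adjusted p = 0.00497), or by 2.22 without myotube replicate C, and the ranges of the 2 stages overlapped. The difference in response against control was 2.69 in the overexpressor (SE 0.86, adjusted p = 0.022) and -1.13 in the knockout (SE 0.41, adjusted p = 0.0352). The first was lost without overexpressor myoblast replicate A (2.35, adjusted p = 0.0774) or B (2.76, adjusted p = 0.0580) and with no filter (2.72, adjusted p = 0.0575), and was 2.10 (adjusted p = 0.0498) without overexpressor myotube replicate C. The second was lost in 11 of the fits that leave out 1 library, at adjusted p-values of up to 0.0874 without knockout myotube replicate C (-0.99), and under 4 other settings. On the opposite strand the annotation places Gm15222 (up to 51 counts in myoblasts of the control and 0 in those of the overexpressor) and Gm15217 (at most 4 counts in any library) across Bmp4. The use of strand in counting is not given in the sources used here, so reads of these genes cannot be told apart from reads of Bmp4.

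Bmp2 (chromosome 2, 133552159 to 133562885), the other ligand of the group, was at or near 0. None of the 9 myoblast libraries, with 424165095 counts together, held a count of it. Control myotubes had 4, 7 and 5 counts, overexpressor myotubes 2, 0 and 1, and knockout myotubes 0 in each. With 3 counts per library put in place of the lower group, the control myotube mean was 2.63-fold above overexpressor and 1.99-fold above knockout myotubes. These folds leave out the counting error of the control, and overexpressor libraries were not all at 0, so neither is a lower limit. With no filter, the adjusted p in myotubes was 0.101 (overexpressor against control) and 0.00807 (knockout against control). For control myotubes against control myoblasts it was 0.0109, with a fold of 1.81 over 3 counts per library.

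Bmpr1a (chromosome 14, 34410734 to 34503341), the type I receptor, varied widely between replicates. It was at 100, 85.3 and 93.1 CPM in control myoblasts, 59.4, 84.3 and 63.2 in the overexpressor and 99.3, 97.9 and 96.3 in the knockout. Myotubes had 106, 96.0 and 117 CPM in control, 63.5, 67.7 and 133 in the overexpressor and 68.7, 42.4 and 42.5 in the knockout. Overexpressor myotube replicate C stood far above the other 2 libraries of its group and above all control myotubes. Over the tested genes, too, this library stood furthest from its replicates, with a chi-square per degree of freedom of 115 and 110 against A and B. Bmpr1a was 2.07-fold lower in knockout than in control myotubes (log2 fold change -1.05, SE 0.25, adjusted p = 0.00193), and it fell on differentiation in the knockout (-0.93, SE 0.25, adjusted p = 0.00475), a response that differed from control (-1.12, SE 0.35, adjusted p = 0.0166). In overexpressor myotubes it did not pass against control (-0.27, SE 0.25, adjusted p = 0.379), and without replicate C it did (-0.59, adjusted p = 0.0107). Overexpressor myotubes were above the knockout with all libraries (0.78, SE 0.25, adjusted p = 0.0153). Without overexpressor replicate C this was 0.39 (adjusted p = 0.0801), and the call was also lost without knockout replicate B or C and with only those groups fitted (0.79, adjusted p = 0.0807). In overexpressor against control myoblasts Bmpr1a did not pass (-0.43, SE 0.25, adjusted p = 0.196), and it passed when only those groups were fitted (-0.46, adjusted p = 0.0145). Gm17110, on the opposite strand, had 3 to 24 counts per library.

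Grem1, the antagonist that binds Bmp2 and Bmp4, was far lower in both kinds of mutant myotubes than in control myotubes. Grem1 (chromosome 2, 113746164 to 113758646) stood at 123, 108 and 132 CPM in control myoblasts, 71.8, 97.5 and 76.4 in the overexpressor and 121, 105 and 99.8 in the knockout. Its myotube levels were 143, 128 and 164 CPM in control, 14.1, 23.5 and 24.5 in the overexpressor and 9.63, 6.29 and 5.29 in the knockout. The 3 myotube groups did not overlap, with control far above both mutant lines, while the ranges of control and knockout myoblasts overlapped. Grem1 was 7.00-fold lower in overexpressor than in control myotubes (log2 fold change -2.81, SE 0.23, adjusted p = 5.35e-08) and 20.4-fold lower in knockout myotubes (-4.35, SE 0.25, adjusted p = 8.23e-10). On differentiation it fell 3.95-fold in the overexpressor and 15.3-fold in the knockout, and did not pass in control (0.26, SE 0.21, adjusted p = 0.3). Both responses differed from control, by -2.24 in the overexpressor (SE 0.30, adjusted p = 3.04e-05) and -4.19 in the knockout (SE 0.32, adjusted p = 6.10e-08). The fall in overexpressor myoblasts was small (-0.56, SE 0.21, adjusted p = 0.0473). It was lost with no filter (adjusted p = 0.107), with the replicate block (adjusted p = 0.0722) and in 5 of the 6 fits that left out 1 library of those groups, all but that without overexpressor replicate B, at adjusted p-values of up to 0.152.

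The ratio of Bmp4 to Grem1, a single ligand over a single antagonist, did not overlap between lines in either stage, and it was not tested. In myoblasts control and knockout lay close, at 0.653 to 0.788 and 0.526 to 0.644, and neither gene was called between them. Per length, the level of Bmp4 divided by that of Grem1 was 0.728 ± 0.0686 in control myoblasts and 0.697 ± 0.0674 in control myotubes (SD, n = 3). It was 0.574 ± 0.0617 in knockout myoblasts and 4.69 ± 0.564 in knockout myotubes (SD, n = 3). In the overexpressor it was 0.00182 ± 0.000896 in myoblasts and 0.0586 ± 0.0451 in myotubes (SD, n = 3). Knockout myotubes thus had the highest ratio and overexpressor myoblasts the lowest of the 6 groups. Both genes were lower in knockout than in control myotubes, with log2 fold changes of -1.63 (Bmp4) and -4.35 (Grem1). By coding length the ratio of knockout myotubes was 1.15, against 0.170 in control myotubes.

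The inhibitory Smads were lower in both mutant lines than in control in both stages. Smad6 (chromosome 9, 63953076 to 64022059), which acts chiefly against the BMP branch, was at 28.3, 30.0 and 34.0 CPM in control myoblasts, 14.5, 13.8 and 16.4 in the overexpressor and 24.3, 20.6 and 23.0 in the knockout. Myotubes had 9.79, 10.4 and 9.33 CPM in control, 4.78, 5.27 and 4.71 in the overexpressor and 6.40, 5.86 and 6.08 in the knockout. No 2 groups overlapped, and the order control, knockout, overexpressor was the same in both stages. The log2 fold change against control was -1.05 (SE 0.09, adjusted p = 4.91e-08) in overexpressor and -0.44 (SE 0.09, adjusted p = 0.000564) in knockout myoblasts. In myotubes it was -1.0 (SE 0.10, adjusted p = 7.41e-08) and -0.68 (SE 0.10, adjusted p = 6.78e-06). Smad6 fell on differentiation 3.13-fold in control, 3.02-fold in the overexpressor and 3.70-fold in the knockout. The responses of the mutant lines did not pass against control (overexpressor 0.05, SE 0.14, adjusted p = 0.824, and knockout -0.24, SE 0.13, adjusted p = 0.143). The overexpressor was also below the knockout in myotubes (-0.31, SE 0.10, adjusted p = 0.0111), a call lost without overexpressor replicate C (-0.25, adjusted p = 0.0704), with library totals (-0.21, adjusted p = 0.0721) and with only those groups fitted (adjusted p = 0.0730).

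Smad7 (chromosome 18, 75367529 to 75395935), which blocks both the BMP and the TGF-beta branch, was at 38.8, 37.6 and 37.2 CPM in control myoblasts, 24.7, 29.2 and 25.6 in the overexpressor and 27.8, 23.4 and 23.6 in the knockout. Its myotube levels were 32.1, 32.6 and 34.3 CPM in control, 12.7, 15.6 and 13.9 in the overexpressor and 6.56, 7.63 and 6.88 in the knockout. Both mutant lines were below control and overlapped each other in myoblasts, and in myotubes the knockout was the lowest with no overlap. Smad7 was lower than control by 0.51 in overexpressor myoblasts (-0.51 on the log2 scale, SE 0.09, adjusted p = 0.000178) and by 0.60 in knockout myoblasts (-0.60, SE 0.09, adjusted p = 2.19e-05). In myotubes the log2 fold change was -1.23 in the overexpressor (SE 0.09, adjusted p = 2.28e-09) and -2.23 in the knockout (SE 0.10, adjusted p = 1.06e-12). It fell on differentiation 1.88-fold in the overexpressor, a response that differed from control by -0.72 (SE 0.13, adjusted p = 0.000219). The knockout fell 3.55-fold, which differed from control by -1.63 (SE 0.13, adjusted p = 1.48e-08). In control it did not pass (-0.20, SE 0.09, adjusted p = 0.0695), and it passed with the Wald test (-0.22, adjusted p = 0.0400), with size factors of DESeq2 (-0.22, adjusted p = 0.0448), with library totals (-0.44, adjusted p = 0.000707) and with only those groups fitted (-0.26, adjusted p = 0.00262).

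**Figure D3:**
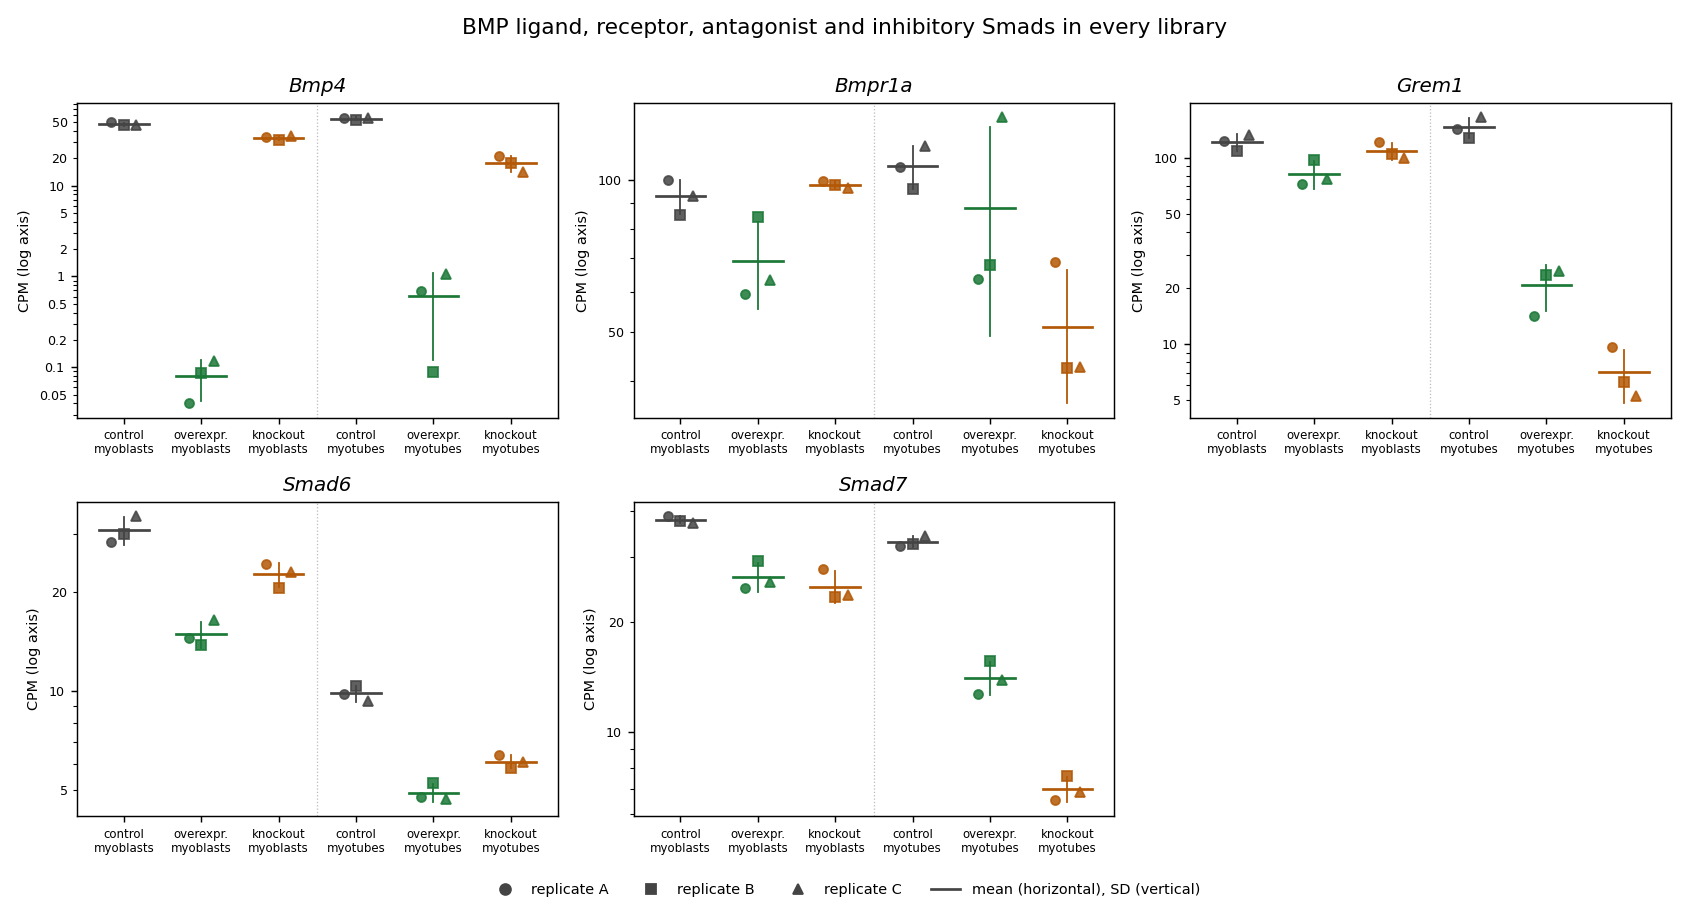
Level of Bmp4, Bmpr1a, Grem1, Smad6 and Smad7 in every library, in CPM on log axes, by group. Symbols mark replicates A, B and C, horizontal lines the mean and vertical lines the SD of 3 libraries. Bmp4 lies at 0.0399 to 1.06 CPM in the 6 overexpressor libraries and at 14 CPM or more elsewhere, and Grem1 lies at 24.5 CPM or less in mutant myotubes alone.

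Counted over the 9 tested members, the myoblast comparisons called 6 between overexpressor and control (2 higher, 4 lower), where 40.4% of all genes tested were called, 20.7% higher and 19.7% lower. Between knockout and control myoblasts 3 were called (1 higher, 2 lower), against 53.0% of all genes, 26.4% higher and 26.6% lower. Between overexpressor and knockout myoblasts 4 were called (2 higher, 2 lower), against 52.6%, with 25.7% higher and 26.9% lower. In myotubes the overexpressor differed from control in 8 members (1 higher, 7 lower), where 57.1% of all genes were called, 26.2% higher and 30.9% lower. The knockout differed from control in 8 members (2 higher, 6 lower), where 68.0% were called, 31.0% higher and 37.0% lower. The 2 mutant lines differed from each other in 8 members (4 higher and 4 lower in the overexpressor), where 59.7% were called, 30.6% higher and 29.1% lower. The median log2 fold change of the members was -0.51 and -0.16 in overexpressor and knockout myoblasts and -1.07 and -0.89 in their myotubes, while that of all genes tested lay between -0.07 and 0.02. Both mutant lines were compared with the same control libraries.

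Differentiation called 4 members in control (all lower), where 62.8% of all genes were called, 33.9% higher and 28.8% lower. In the overexpressor it called 8 (1 higher, 7 lower), against 62.8%, with 29.8% higher and 33.0% lower. In the knockout it called all 9, each lower, against 65.4%, with 29.8% higher and 35.6% lower. The responses differed between overexpressor and control for 6 members (1 higher, 5 lower), against 39.0% of all genes, 16.6% higher and 22.3% lower. They differed between knockout and control for 6 members (1 higher, 5 lower), against 50.1%, with 20.2% higher and 29.9% lower, and between overexpressor and knockout for 6 (4 higher, 2 lower), against 46.7%, with 24.3% higher and 22.4% lower. The knockout was called higher in response for Id3 alone, and the overexpressor for Bmp4 alone, each against control.

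The scaling of the libraries moved the median of all genes, and small changes have to be read against it. With library totals instead of TMM factors, the median log2 fold change went from -0.04 to 0.11 in overexpressor against control myotubes, from 0.07 to -0.17 in control differentiation and from -0.08 to -0.24 in knockout differentiation. With DESeq2 size factors it went from -0.07 to 0.06 in knockout against control myotubes. The share of calls that were higher moved with it, from 45.8% to 57.8% in overexpressor against control myotubes, from 54.0% to 37.9% in control differentiation and from 45.5% to 34.0% in knockout differentiation (all with library totals). For the response of the overexpressor against control that share was 42.7% with TMM, 53.9% with size factors and 61.0% with library totals, and for the knockout response it was 40.4%, 52.0% and 47.2%. Among the members, Bmp4 and Bmpr1a changed sign in control differentiation with library totals (-0.049 and -0.052), neither of them a called change.

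**Figure D4:**
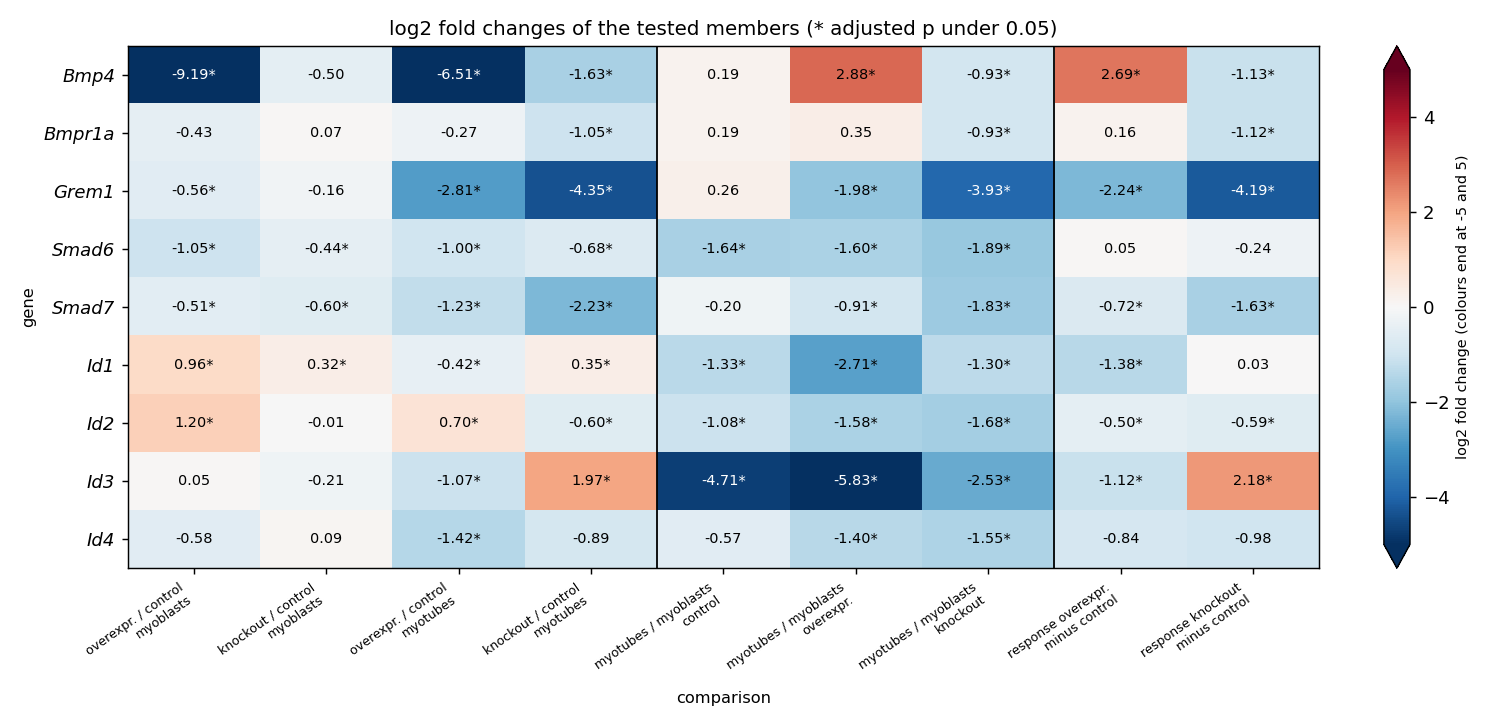
Log2 fold change of the 9 tested members (rows) in 9 comparisons (columns), as colour and number, with an asterisk where the adjusted p is under 0.05. Bmp4 is lowest in the overexpressor, at -9.19 and -6.51, Id1, Id2 and Id3 are lower in myotubes than in myoblasts in each line, and Grem1 is lowest in knockout myotubes against control, at -4.35.

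Across the 18 libraries some members moved together and others did not. The log2 CPM of Smad7 and Grem1 had a Pearson r of 0.97, that of Id1 and Id3 an r of 0.94, and that of Id4 and Smad6 an r of 0.86. Bmp4 ran against Id2, with an r of -0.58, and had an r of -0.18 with Id1 and 0.05 with Id3. These values describe libraries that share lines and stages, so they are not independent points. Of 11935 genes searched with a mean of at least 5 CPM in 1 group, the pattern most like Id3 was that of Cnot9 (r = 0.9882), followed by Tmem164 and Mpzl1. Id1 was most like Arl6ip1 (0.9784) and Bmp4 most like Emilin1 (0.9848), which encodes an extracellular matrix protein. Grem1 was most like Dse (0.9887), Smad7 most like Ets2 (0.9855), Smad6 most like Tcf7l2 (0.9809) and Bmpr1a most like Slmap (0.9851).

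The other genes of the pathway were read from a list of 55 genes, of which 46 passed the filter. In myoblasts 28 of the 46 passed for overexpressor against control, 8 higher and 20 lower, and 34 for knockout against control, 12 higher and 22 lower. Of all genes tested, 40.4% (20.7% higher, 19.7% lower) and 53.0% (26.4% higher, 26.6% lower) passed in these comparisons. In myotubes 35 passed for the overexpressor, 6 higher and 29 lower, and 41 for the knockout, 11 higher and 30 lower, where 57.1% of all genes (26.2% higher, 30.9% lower) and 68.0% (31.0% higher, 37.0% lower) passed. The median log2 fold change over the 46 was -0.19 and -0.25 in myoblasts and -0.72 and -0.87 in myotubes, in the same order of lines, against -0.07 to 0.02 over all genes tested. Differentiation called 30 genes of control cells, 17 higher and 13 lower, 30 of overexpressor cells, 10 higher and 20 lower, and 33 of knockout cells, 9 higher and 24 lower. The shares over all genes were 62.8% (33.9% higher, 28.8% lower), 62.8% (29.8% higher, 33.0% lower) and 65.4% (29.8% higher, 35.6% lower). The total called in the control and overexpressor lines was thus near the background, which does not speak to the split by direction. The response differed from control for 25 of the 46 in the overexpressor (6 higher, 19 lower) and for 25 in the knockout (5 higher, 20 lower). Over all genes this was 39.0% (16.6% higher, 22.3% lower) and 50.1% (20.2% higher, 29.9% lower). Between the mutant lines the response differed for 26 (13 higher, 13 lower), against 46.7% of all genes (24.3% higher, 22.4% lower).

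Ligands were scarce apart from Bmp4. Of the 6 tested, only Gdf5, a ligand of joint and cartilage development, met the rule for naming, which asked for a mean of 5 CPM. It had at most 2 counts in any control or overexpressor myoblast library and 7 to 29 in the knockout, and reached 0.658 ± 0.0891 CPM (control), 3.81 ± 0.285 (overexpressor) and 6.64 ± 0.500 (knockout) in myotubes (SD, n = 3). Gdf5 was higher in knockout than in control myotubes by 3.34 (SE 0.26, adjusted p = 3.04e-09) and rose on differentiation in the knockout by 4.48 (SE 0.29, adjusted p = 3.72e-10), or by 5.23 without knockout myoblast replicate B. Receptors and coreceptors were mostly lower in mutant than in control myotubes, with 7 of 10 lower and none higher in the overexpressor, and 7 lower and 3 higher in the knockout. The 10 include Bambi, a decoy receptor that dampens the signal. Its myotube means were 0.605 CPM (control), 0.196 (overexpressor) and 1.44 (knockout). Over all genes, 30.9% were lower in the overexpressor and 37.0% in the knockout. Acvr2a, a type II receptor, was higher in knockout myoblasts (log2 fold change 1.19, SE 0.23, adjusted p = 0.000435). Rgma, a coreceptor, rose on differentiation in the overexpressor from 10.0 ± 0.717 to 24.1 ± 1.62 CPM (SD, n = 3, adjusted p = 1.78e-09). The 6 genes listed as signal transducers were Smad1, Smad4, Smad5, Smad9, Smurf1 and Smurf2, and the Smurf genes do not encode Smads. Against control, 5 of the 6 were lower in knockout myoblasts and all 6 in knockout myotubes. In overexpressor myotubes 5 were lower and 1 higher. The 1 higher was Smurf1 (129 ± 11.4 against 107 ± 6.83 CPM, SD, n = 3), given here outside the rule for naming. The shares of all genes called lower were 26.6%, 37.0% and 30.9%. Smad9, a Smad that BMP receptors activate, was at 9.62 ± 0.670 CPM (control), 9.53 ± 0.454 (overexpressor) and 4.34 ± 0.567 (knockout) in myoblasts (SD, n = 3), lower in the knockout by 1.15 (log2 fold change -1.15, SE 0.15, adjusted p = 3.24e-06). It fell by 2.94 on differentiation in the overexpressor (SE 0.16, adjusted p = 1.87e-11).

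Antagonists changed in both directions. All 12 tested were called in knockout myoblasts (5 higher, 7 lower) and 9 in overexpressor myoblasts (3 higher, 6 lower), where 53.0% and 40.4% of all genes were called. Fst, which encodes follistatin, an antagonist of activins and some BMPs, was at 17.1 ± 0.898 CPM (control), 4.80 ± 1.15 (overexpressor) and 95.5 ± 8.08 (knockout) in myoblasts (SD, n = 3). Its log2 fold change was -1.84 in the overexpressor (SE 0.12, adjusted p = 1.03e-09) and 2.48 in the knockout (SE 0.12, adjusted p = 4.67e-12), so the mutant lines lay on opposite sides of control. In myotubes Fst was at 116 ± 4.78, 155 ± 17.0 and 230 ± 14.6 CPM in control, overexpressor and knockout (SD, n = 3). Bmper, a secreted BMP-binding protein, was lower in both lines, at 46.1 ± 0.438 CPM (control), 8.59 ± 0.490 (overexpressor) and 11.3 ± 0.420 (knockout) in myoblasts (SD, n = 3). In knockout myotubes it was lower by 3.22 (log2 fold change -3.22, SE 0.10, adjusted p = 7.29e-15). Fstl3, related to follistatin, was lower in the overexpressor by 3.85 in myoblasts (-3.85, SE 0.31, adjusted p = 9.31e-08) and 4.60 in myotubes (-4.60, SE 0.31, adjusted p = 5.60e-09), and by 2.46 in knockout myotubes (-2.46, SE 0.27, adjusted p = 1.49e-06).

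Chrdl1, related to chordin, had 390 to 528 counts in control myotubes, at most 2 in the overexpressor and 1 to 4 in the knockout. It was at least 217-fold lower in overexpressor than in control myotubes, against the floor of 3 counts per library, and lower by 7.47 on the log2 scale in the knockout (-7.47, SE 0.32, adjusted p = 8.54e-13). Nog, which encodes noggin, rose on differentiation in control from 1.57 ± 0.0880 to 6.03 ± 0.457 CPM (SD, n = 3, adjusted p = 1.44e-09) and was lower than control in overexpressor myotubes by 2.83 (-2.83, SE 0.15, adjusted p = 1.80e-11) and in knockout myotubes by 0.41 (-0.41, SE 0.13, adjusted p = 0.0118). In myoblasts Nog was higher than control in both lines, by 1.06 (overexpressor, adjusted p = 1.25e-05) and 1.30 (knockout, adjusted p = 5.79e-07). Chrd, which encodes chordin, rose on differentiation in all 3 lines, by 2.32 (control), 1.99 (overexpressor) and 2.32 (knockout). Nbl1 was higher in overexpressor myoblasts, at 291 ± 33.0 against 137 ± 4.33 CPM in control (SD, n = 3, adjusted p = 5.95e-08). Nbl1 was lower than control in overexpressor myotubes (-0.47, adjusted p = 0.000445) and in the knockout at both stages (-0.71 and -0.77, adjusted p = 8.07e-06 and 2.01e-06). Twsg1, which can act for or against BMP, fell on differentiation in the knockout by 1.5 (SE 0.12, adjusted p = 1.19e-08) and was higher in overexpressor than in knockout myotubes by 0.97 (SE 0.12, adjusted p = 3.73e-06).

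Target genes other than Id changed in both directions. Of 9 tested, 5 were called in overexpressor myoblasts (2 higher, 3 lower), 6 in knockout myoblasts (2 higher, 4 lower), 6 in overexpressor myotubes (1 higher, 5 lower) and 7 in knockout myotubes (3 higher, 4 lower). The shares over all genes were 40.4%, 53.0%, 57.1% and 68.0%. Hey1, a repressor that BMP and Notch signals induce, was higher than control in both lines and both stages. It was at 11.4 ± 0.690 CPM (control), 39.6 ± 5.32 (overexpressor) and 53.6 ± 3.41 (knockout) in myoblasts, and at 4.13 ± 0.245, 19.5 ± 1.99 and 35.5 ± 1.17 CPM in the myotubes (SD, n = 3). The log2 fold changes were 1.80 and 2.24 in myoblasts and 2.24 and 3.11 in myotubes, with adjusted p-values of at most 6.92e-11. Atoh8, a helix-loop-helix gene induced by BMP, was at 12 ± 1.20 CPM (control), 4.14 ± 0.571 (overexpressor) and 28.5 ± 1.19 (knockout) in myotubes (SD, n = 3), the order seen for Id3. It was higher in the knockout by 1.25 (SE 0.11, adjusted p = 8.99e-09) and lower in the overexpressor than in the knockout by 2.78 (-2.78, SE 0.11, adjusted p = 2.09e-12). Dlx3, a homeobox gene, was higher in overexpressor than in control myoblasts by 1.24 (SE 0.15, adjusted p = 1.76e-06) and fell on differentiation in each line, by 2.07 (control), 3.17 (overexpressor) and 3.02 (knockout). Msx1, another homeobox gene, was lower in knockout myoblasts by 1.07 (-1.07, SE 0.14, adjusted p = 3.05e-06). Runx2, the regulator of bone formation, was lower than control in both lines and stages, by log2 fold changes of -1.24 (overexpressor) and -0.83 (knockout) in myoblasts and -1.42 and -2.45 in myotubes, with adjusted p-values of at most 1.08e-07. It fell on differentiation in the knockout by 2.07 (SE 0.09, adjusted p = 2.54e-12) and was higher in overexpressor than in knockout myotubes by 1.02 (SE 0.09, adjusted p = 2.05e-08).

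Tcf3 and Tcf4, which encode E proteins that Id proteins bind, had group means of 65.9 CPM or more. Tcf3 was at 217 ± 8.72 CPM (control), 233 ± 19.6 (overexpressor) and 191 ± 3.13 (knockout) in myoblasts, and at 112 ± 4.99, 98.5 ± 11.1 and 141 ± 5.71 CPM in the myotubes (SD, n = 3). Its response in the knockout differed from control by 0.51 (SE 0.11, adjusted p = 0.000788). Tcf4 was lower in overexpressor than in knockout myoblasts by 1.02 (-1.02, SE 0.20, adjusted p = 0.000568). All 3 E protein genes were called in each mutant line against control in myotubes, 3 lower in the overexpressor and 2 lower with 1 higher in the knockout, where 57.1% and 68.0% of all genes were called. Tcf3 in the overexpressor was near the threshold (-0.19, SE 0.08, adjusted p = 0.0455), and its groups overlapped.

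**Figure D5:**
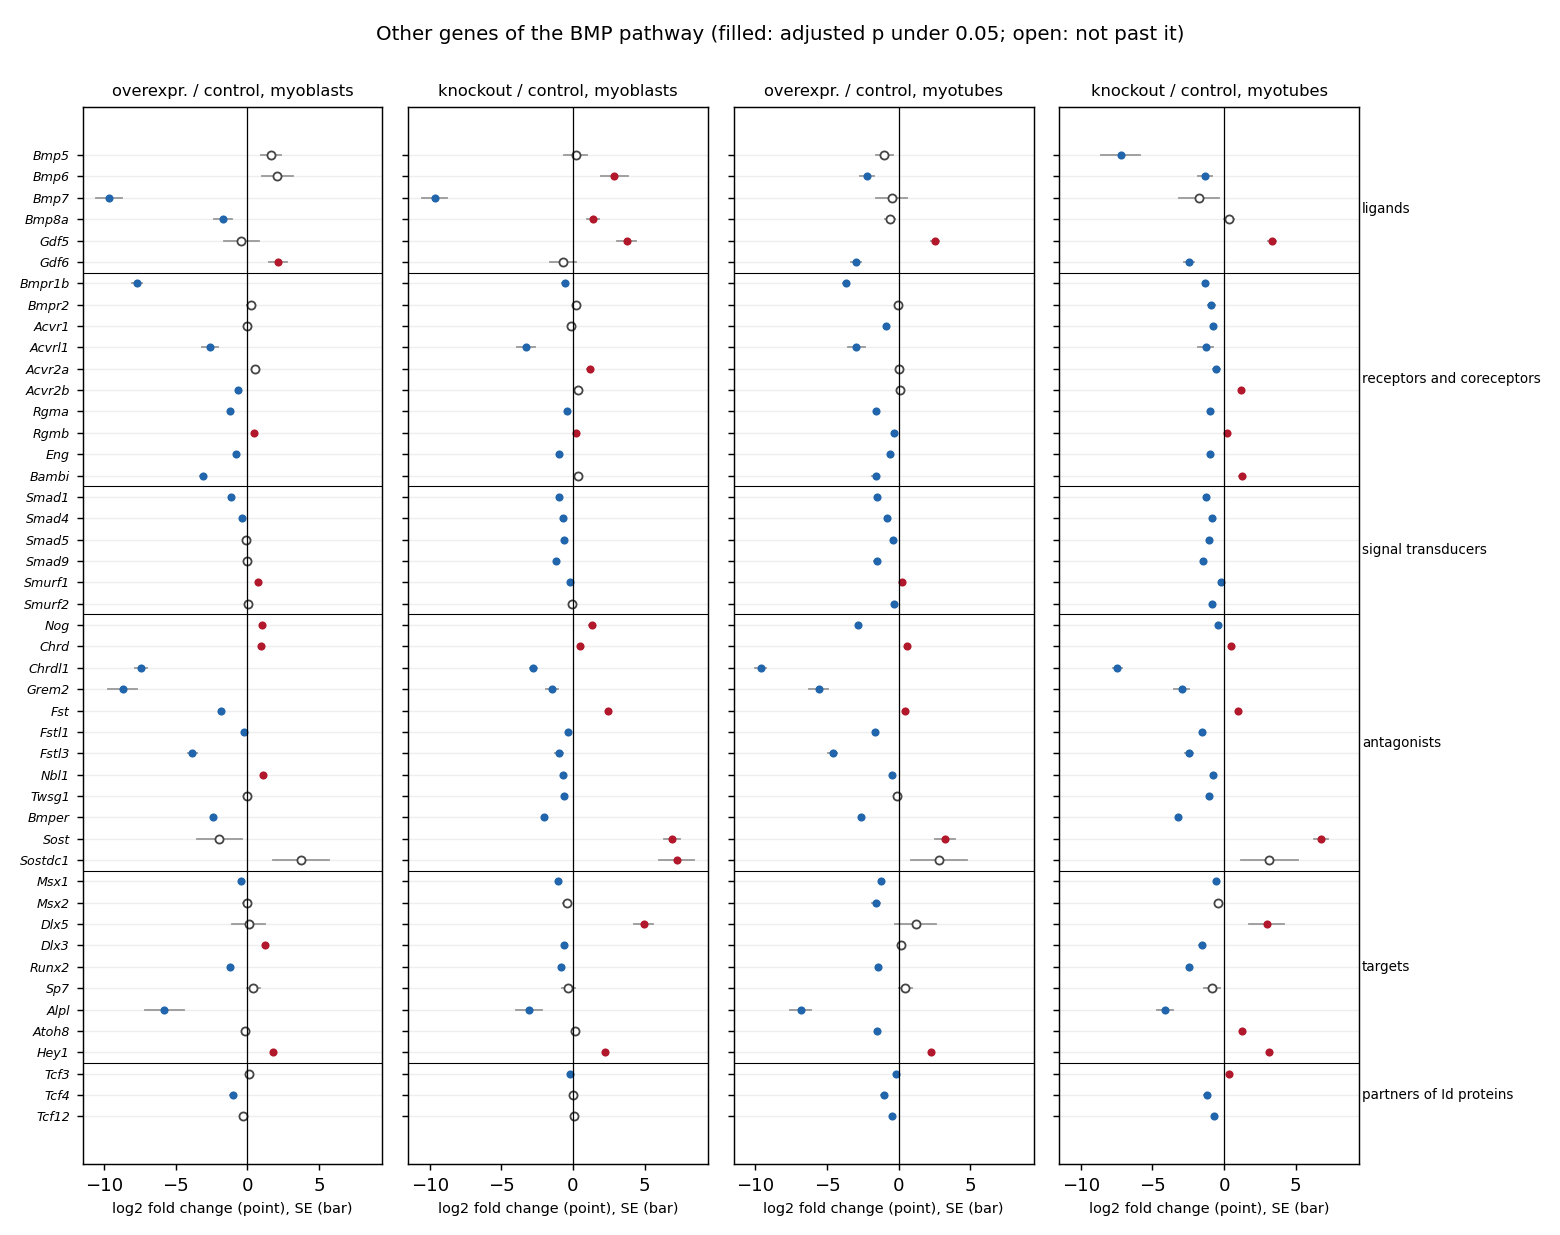
Log2 fold change against control of the 46 tested genes of the pathway list, ordered by role, in overexpressor and knockout myoblasts and myotubes. Points are estimates, bars are SE, and filled points passed an adjusted p of 0.05 (red higher, blue lower). In myotubes most filled points lie left of 0, 29 of 35 in the overexpressor and 30 of 41 in the knockout, and Hey1 lies right of 0 in each panel.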

How the data were processed

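Polyadenylated RNA of 18 libraries was used, 3 in each of 6 groups, grouped by their titles. The authors deposited raw counts per Ensembl gene; per the submitters' processing notes, STAR 2.7.9a, featureCounts, Subread 2.0.3, FastQC 0.11.7, DESeq2 1.32.0 and mm10 were used, and strand use and annotation release are not given in the sources used here. Of 55450 gene IDs, 55104 matched GENCODE M21 (GRCm38), and the rest held at most 0.0462% of a library's counts. The test was that of edgeR 4.0.16, run in R 4.3.3 on the counts (TMM factors 0.895 to 1.08, filterByExpr by group, robust quasi-likelihood test, 1 fit of 6 group means with 12 residual degrees of freedom). From the fit came 12 contrasts, adjusted by Benjamini-Hochberg over 17912 genes, with a threshold of 0.05, and the fit was tested on simulated data. SE is the absolute log2 fold change divided by the square root of F. Alternatives were DESeq2 size factors, library totals, no filter, the DESeq2 1.42.0 Wald test, only the groups compared, the replicate letter as a block, and leaving out each library.

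The members and lists were chosen with earlier results of these data known. Besides the 10 members, genes of the pathway list were named by rule: per contrast, up to 3 with the highest and 3 with the lowest log2 fold change among those past the threshold, with a mean of at least 5 CPM in the higher group and, outside differences in response, no overlap of replicates. Likeness is Pearson's r of log2 CPM (prior count 2). In every pair of replicates the chi-square of their counts per degree of freedom was 4.55 or more, so no library was counted as a copy. It was highest for overexpressor myotube replicate C, at 115 and 110 against A and B, where A against B gave 22.2. Outside that group the highest was 52.8, for knockout myotubes A against C. The other deposited table, of variance-stabilised values, was not used here, nor were protein sequences of the Id family. The likeness of Id2 is not reported here.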

Additional observations from a re-analysis of the deposited data

Results flagged for a closer look

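The response to differentiation differed between lines in some comparison, by the test of the difference itself, for 7 of the members. In each single comparison 6 of the 9 tested members were called. Of all genes tested, 39.0% (overexpressor against control), 50.1% (knockout against control) and 46.7% (overexpressor against knockout) were called. The share of all genes called in any of these comparisons was not computed, so the 7 cannot be set against these shares. The rule named 12 pathway genes here, and it takes only genes already past the threshold, so their number is not a result. Values are given as log2 differences in response.

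Between overexpressor and control the difference was 2.69 for Bmp4, 2.26 for Fst and 0.44 for Hey1. It was -0.50 for Id2, -0.72 for Smad7, -1.12 for Id3, -1.38 for Id1, -1.51 for Smad9, -1.56 for Nbl1, -2.24 for Grem1 and -3.88 for Nog. That of Hey1 (adjusted p = 0.0208) was lost without control myoblast replicate B (0.40, adjusted p = 0.0540), control myotube replicate C (0.40, adjusted p = 0.0524) or overexpressor myotube replicate B (0.37, adjusted p = 0.0579).

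Between knockout and control it was 2.18 for Id3, 1.08 for Atoh8, 0.87 for Hey1 and 0.51 for Tcf3. It was -0.59 for Id2, -1.12 for Bmpr1a, -1.13 for Bmp4, -1.63 for Smad7, -1.71 for Nog, -1.72 for Acvr2a, -4.19 for Grem1 and -4.69 for Chrdl1.

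Between overexpressor and knockout it was 3.82 for Bmp4, 3.75 for Fst, 3.36 for Gdf5, 1.95 for Grem1, 1.43 for Runx2, 1.29 for Bmpr1a and 0.91 for Smad7. It was -1.26 for Msx1, -1.41 for Id1, -1.50 for Nbl1, -2.44 for Atoh8 and -3.30 for Id3. The value of Gdf5 rests on overexpressor myoblast libraries with 0 or 1 count each, and was 2.61 without knockout myoblast replicate B. That of Bmp4 was 3.14 without overexpressor myotube replicate C.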

How the results depend on the processing

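With only the groups compared in the fit, the members called rose from 3 to 5 in knockout against control myoblasts and from 4 to 7 in overexpressor against knockout myoblasts; in this fit the spread comes from fewer libraries. The numbers of members and of pathway genes called in all other comparisons stayed within 1.5 times under each alternative run. With library totals, the changes of Bmp4 (-0.049) and Bmpr1a (-0.052) in control differentiation turned sign. Over the fits that left out 1 library, signs turned only for changes that were not called: Id1 in the response of knockout against control (-0.019 to 0.09), Id2 in knockout against control myoblasts (-0.07 to 0.025), Id3 in overexpressor against control myoblasts (-0.0049 to 0.13), Id4 in knockout against control myoblasts (-0.19 to 0.32) and in the response of overexpressor against knockout (-0.13 to 0.64), Smad6 in the response of overexpressor against control (-0.027 to 0.19), and Bmpr1a in overexpressor differentiation (-0.026 to 0.54) and in the response of overexpressor against control (-0.15 to 0.35). The last 2 turned without overexpressor myotube replicate C. Without overexpressor myoblast replicate C, the response of Smad6 in overexpressor against knockout passed (0.37, adjusted p = 0.0443), as it did with library totals (0.41, adjusted p = 0.0222). Id4 passed in control differentiation without control myotube replicate C (-0.97, adjusted p = 0.0485) and in the response of knockout against control without knockout myotube replicate B (-1.47, adjusted p = 0.0441). Of the 71 results for named pathway genes, 1 lost its call, that of Hey1 given above. Low counts limit Id4, Bmp2 and Bmp4 in the overexpressor.

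The replicate letters do not pair the libraries: in 45 pairs of the same letter, the deviations from the group means correlated at -0.358 to 0.264, 4 of them over 0.1, and 10 were highest with their own letter. With the replicate block, 5 members rather than 6 were called in overexpressor against control myoblasts, where Grem1 was lost (-0.56, adjusted p = 0.0722), and no other member or named gene changed its call.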

Other observations

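Genes under 5 CPM were left out of the rule for naming, and 3 of the pathway list are given here after their values were seen. Bmpr1b, a type I receptor related to Bmpr1a, had 153 to 192 counts in control, 108 to 137 in knockout and 0 or 1 in overexpressor myoblasts. In myotubes it had 206 to 251, 71 to 118 and 17 to 32 counts in the same order, so it ran in the order of Bmp4. Bambi, a decoy receptor that dampens the signal, was at 2.77 ± 0.187 CPM (control), 0.318 ± 0.0776 (overexpressor) and 3.60 ± 0.236 (knockout) in myoblasts, and at 0.605 ± 0.184, 0.196 ± 0.0141 and 1.44 ± 0.195 CPM in the myotubes (SD, n = 3). Bmp7 had 71 to 105 counts in control myoblasts, 0 in all 6 mutant myoblast libraries and at most 4 in any myotube library.

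The genes next to Bmp4 were also read after its values were seen. Of 15 tested protein-coding genes within 1 Mb, the nearest at 369872 bases, 9 were called in overexpressor against control myoblasts, with log2 fold changes from -0.61 to 0.63. In overexpressor myotubes 7 were called, from -1.96 to 1.13 over the 15. Of all genes tested, 40.4% (myoblasts) and 57.1% (myotubes) were called in these comparisons. None of the 15 approached the -9.19 and -6.51 of Bmp4 itself, and no protein-coding gene nearer than 369872 bases was tested. Around Grem1, 9 such genes lay within 1 Mb, and in knockout against control myotubes they ran from -0.74 to 1.88, against -4.35 for Grem1. The nearest, Scg5 (17716 bases) and Fmn1 (29397 bases), were at 0.36 (adjusted p = 0.638) and -0.72 (adjusted p = 0.000519).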
